A study of Mus musculus with 21 samples.

Results

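Transcripts of 7 genes of the TREM2 pathway were measured in mouse microglia: the receptor gene Trem2, its adapter gene Tyrobp, the kinase genes Syk and Btk, the phospholipase gene Plcg2, the exchange factor gene Vav1 and the phosphatase gene Inpp5d. They were chosen by name, and all 7 were found among the 18079 genes of one table and among the 13297 genes of the other. The first table compared 4 uninjected libraries from ApoE knockout females (strain B6.129P2-Apoetm1Unc/J, which carries a constitutive targeted Apoe allele) with 7 uninjected libraries from wild-type C57BL/6 females. The second held libraries from males of the same knockout strain only, 5 whose left hemisphere received recombinant APOE protein (rAPOE) in PBS and 5 that received PBS. Mice of every group were 12 to 18 weeks old per the labels, and brains of injected mice were taken 16 h after the injection. Both hemispheres were collected, and the labels do not say which one a library came from. Whether each library is a mouse of its own is not stated either, and the p-values measure a spread between samples that may be partly technical.

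TREM2 is a receptor on the surface of microglia that binds lipids, lipoproteins and apolipoproteins, ApoE among the last. It has no signalling tail of its own and pairs with TYROBP, also called DAP12, whose tyrosine motif is phosphorylated by Src family kinases and then recruits SYK. SYK passes the signal to PLCG2, which cleaves a membrane phosphoinositide and releases calcium, to VAV1, which activates Rac, and to BTK, a Tec family kinase that acts on phospholipase C. INPP5D, also called SHIP1, removes a phosphate from the lipid product of phosphoinositide 3-kinase and restrains the pathway. In humans, variants in TREM2, PLCG2 and INPP5D are linked to the risk of Alzheimer's disease.

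Values are normalised counts, the reads of a gene divided by a factor of the library, from libraries that read 1 tag near the 3′ end of each transcript. Each table was normalised by itself, so levels are compared only within a table. Whole reads could be recovered from the values. The knockout libraries held 4247865 to 4969287 reads and the wild-type libraries 2016972 to 3054976. Genes with reads were fewer in the knockout libraries, at 8117 to 10479, than in the wild-type libraries, at 13592 to 15248. The rAPOE libraries held 857059 to 1119059 reads and the PBS libraries 704225 to 1347501. Genes with reads numbered 7691 to 8727 in rAPOE libraries 1 to 3, and 11342 and 11026 in rAPOE libraries 4 and 5. In PBS libraries 1 to 3 they numbered 7601 to 8837, and in PBS libraries 4 and 5 they numbered 11232 and 10025. Microglial markers were detected in each library, P2ry12, Tmem119 and Cx3cr1 among them. Apoe, the targeted gene, had 10.2, 0, 0 and 23.1 in the knockout libraries, against 13196 to 17164 in 6 wild-type libraries. Wild-type library 8 stood apart with 1011, below the remaining wild-type libraries and above the knockout ones, and is given by itself beside each member. Whether its label is right was not tested. Sex markers did not follow the labels in 8 libraries. The 6 other wild-type libraries, labelled female, held 11 to 36 reads from 4 Y-linked genes beside 1127 to 1279 of Xist, while the knockout libraries and library 8 held 0 such reads. In the injection table, rAPOE library 5 and PBS library 5 were labelled male but held 0 Y-linked reads, with 718 and 979 of Xist. Results of that table are therefore also given without these 2 libraries.

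The members lie at separate places in the genome (GRCm38, GENCODE M21), and Trem2 and Vav1 share chromosome 17. Trem2 spans chr17:48346401-48354147 on the plus strand, Inpp5d spans chr1:87620312-87720507 on the plus strand, and Btk spans chrX:134542336-134583570 on the minus strand. Tyrobp (chr7:30413760-30417585, plus strand) ends 126 bases from the end of Hcst, another adapter gene, which runs on the opposite strand. The strand setting of the counting is not given in the sources used here, so tags near those ends could be shared. Syk (chr13:52583173-52648792), Plcg2 (chr8:117498291-117635142) and Vav1 (chr17:57279100-57328031) are also on the plus strand. The miRNA gene Gm27361 overlaps Plcg2 and the pseudogene Gm15154 overlaps Btk, each on the opposite strand. The 250 bases before RefSeq's start are shown for Trem2 and Inpp5d, on which the results below turn, and for Btk, the X-linked member. They are from RefSeq on GRCm38.p6, at chr17:48346151-48346400 (plus strand), chr1:87620062-87620311 (plus strand) and chrX:134583141-134583390 (minus strand), and are written 5′ to 3′ along the gene. For Btk the RefSeq start, and with it the window, lies inside the GENCODE span given above. Capitals mark GAGGAA, the core of the motif bound by PU.1, a transcription factor of myeloid cells, on either strand (TTCCTC in reverse).
Trem2: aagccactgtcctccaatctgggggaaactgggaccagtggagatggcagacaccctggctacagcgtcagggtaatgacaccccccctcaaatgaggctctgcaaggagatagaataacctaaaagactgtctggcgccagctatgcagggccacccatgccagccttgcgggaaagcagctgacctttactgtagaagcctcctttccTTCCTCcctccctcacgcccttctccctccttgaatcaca
Inpp5d: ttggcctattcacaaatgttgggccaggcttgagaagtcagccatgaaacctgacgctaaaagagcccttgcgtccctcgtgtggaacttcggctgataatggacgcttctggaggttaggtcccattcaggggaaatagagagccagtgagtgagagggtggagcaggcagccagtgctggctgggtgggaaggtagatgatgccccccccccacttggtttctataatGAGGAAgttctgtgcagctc
Btk: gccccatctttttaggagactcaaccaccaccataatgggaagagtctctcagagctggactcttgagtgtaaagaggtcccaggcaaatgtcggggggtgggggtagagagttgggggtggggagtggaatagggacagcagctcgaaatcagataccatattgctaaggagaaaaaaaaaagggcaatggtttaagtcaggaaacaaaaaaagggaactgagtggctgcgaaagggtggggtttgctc
The Trem2 window holds the motif in reverse, the Inpp5d window holds it forward near its 3′ end, and the Btk window does not hold these letters. Over 7 RefSeq windows of 6 members (Syk has 2), 4 held it, against 23.3% of 32851 mouse windows of the same length. A match is a description of letters and not a site of binding.

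Between ApoE knockout and wild-type microglia, Inpp5d was the member that passed the test, and it was higher in the knockout. Trem2 and Tyrobp did not pass, and their knockout values overlapped those of 6 of the 7 wild-type libraries, while library 8 had almost no Trem2 tags. Btk was higher in each knockout library than in those 6, without passing the test. The kinase gene Syk varied widely among the knockout libraries. In bulk samples such as these, fewer cells of a type and less RNA per cell cannot be told apart.

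**Figure D1:**
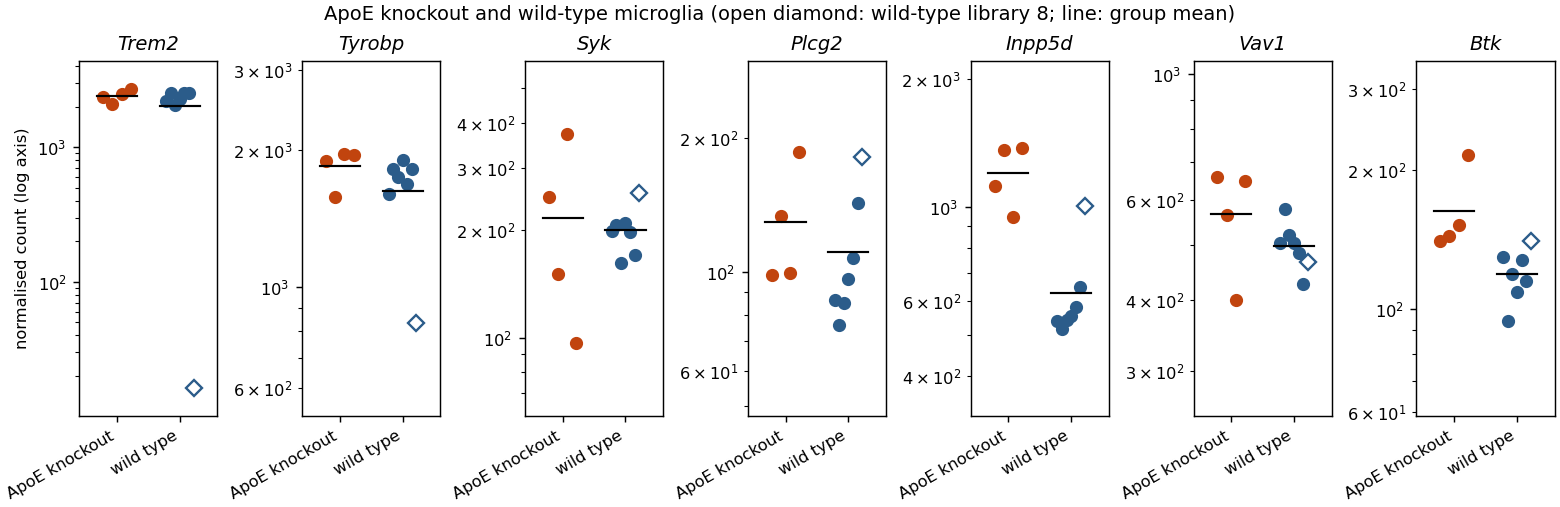
Normalised counts of the 7 members (log axis, each panel with its own range) in 4 ApoE knockout libraries (left) and 7 wild-type libraries (right). Points are libraries, lines are group means and the open diamond is wild-type library 8, which lies at 16.2 for Trem2 and, for Inpp5d, at 1004 among the knockout libraries.

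The receptor gene Trem2 had 2376, 2089, 2493 and 2731 normalised counts in the knockout libraries. In the wild-type libraries other than 8 its lowest, median and highest values were 2044, 2412 and 2547, and in library 8 it had 16.2, or 9 reads. The groups overlapped, and library 8 alone stood far from all other libraries. Without it the means were 2422 ± 267 in the knockout (SD, n = 4) and 2360.2 ± 217 in wild type (SD, n = 6). The difference in log2(normalised count + 1), knockout minus wild type, was then 0.04 with a standard error (SE) of 0.09, and limma's Benjamini-Hochberg adjusted p was 0.790. With library 8 the difference was 1.05 (SE 1.10) and limma's adjusted p was 0.511. Its interval then ran from -1.30 to 3.40, so a single library set both the size and the error of the Trem2 estimate.

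Library 8 was examined further for genes low in the same way, chosen after the values were seen. Of 574 genes tested that averaged at least 500 in the other wild-type libraries, 9 had a lowest value there at least 50 times that of library 8, and Trem2 was among them at 126 times. The others were Alox15, Clec7a, Cst7, Fn1, Gm11942, Gpnmb, Itgax and Saa3. These 8 were also low in every knockout library, none above 68.1, whereas Trem2 there was at least 2089. Clec7a (a fungal receptor gene), Cst7 (a cystatin gene) and Itgax (an integrin gene) are raised by microglia around plaques in mouse amyloid models. That state is known to need Trem2, and the part of Trem2 in the values here was not tested. Library 8 had 7.22 of Cst7, and the remaining wild-type libraries had 1232 to 1672. The summed level of the 10 microglial markers was 74147 in library 8 and 64516 to 69544 in the others.

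The adapter gene Tyrobp had 1892, 1579.5, 1964 and 1955 in the knockout libraries. In wild type, 6 libraries lay between 1602 and 1901, with a median of 1782, and library 8 at 836. Library 8 was thus the lowest of the 11 libraries for Tyrobp as well, by a much smaller margin than for Trem2. The difference was 0.22 (SE 0.20), with an adjusted p of 0.446 in limma. Without library 8 it was 0.06 (SE 0.08), with an adjusted p of 0.566 in limma.

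Within a library, the log2 ratio of Trem2 to Tyrobp was 0.33, 0.40, 0.34 and 0.48 in the knockout. In wild-type libraries other than 8 it ran from 0.23 to 0.59, and in library 8 it was -5.60. Counts of tags are not compared between genes here, and the ratio is used only to set libraries side by side. The knockout ratios all lay inside the range of those 6 wild-type libraries.

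Inpp5d, the gene of the lipid phosphatase, had 1122, 1364, 947 and 1379 in the knockout libraries. In wild-type libraries other than 8 its lowest, median and highest values were 517, 548 and 648, and library 8 had 1004. Every knockout library was above those 6, and library 8 lay among the knockout libraries. The means were 1203 ± 207 in the knockout (SD, n = 4) and 626 ± 172 in wild type (SD, n = 7), a ratio of 1.92. The difference was 0.96 (SE 0.18), with a limma adjusted p of 0.00165. Without library 8 it was 1.08 (SE 0.11) and the ratio 2.14, with a limma adjusted p of 1.20e-05. It passed in each of the 21 alternatives run, with adjusted p between 1.20e-05 and 0.00782 over limma, edgeR and DESeq2.

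Of the 7 members, 1 rose and 0 fell in the knockout, while 5.14% of the 10401 genes tested rose and 19.8% fell. Without library 8 the same member rose and 0 fell, against 7.64% and 23.0% of 10352 genes. With all libraries, 0 members lay wholly above wild type, against 3.67% of genes. The median difference over the members was 0.23, against -0.45 over all genes tested. That shift depended on the level of a gene. Among 572 tested genes averaging at least 500, where Inpp5d belongs, the median was 0.10 and 24.8% rose, and among 4687 genes averaging 10 to 50 the median was -1.21. Quantile scaling set the overall median at 0.09 and gave 920 higher and 1027 lower genes, against 535 and 2061 without it. Inpp5d differed by 0.92 under that scaling. The summed microglial markers also differed between the groups, at 79846 to 95124 in the knockout and 64516 to 74147 in wild type, with all 10 detected in both. The markers did not move as one. Median Tmem119 was 5027 in the knockout and 2016 in wild type, Fcrls 4079 and 2139, and P2ry12 4741 and 2586. Medians of Csf1r (6666 against 7686) and C1qa (14770 against 15977) were lower in the knockout, and those of the other markers higher. The part of the markers in the Inpp5d difference was not tested. The 6 wild-type libraries with the lower Inpp5d values were also those with 11 to 36 Y-linked reads, while the 4 knockout libraries and library 8, which held 0, had the higher values. Without library 8, genotype and the sex markers therefore cannot be told apart, and the part of the sex markers was not tested.

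The kinase gene Btk had 141, 144, 153 and 215 in the knockout libraries, 94.1 to 130.1 in 6 wild-type libraries (median 117) and 141 in library 8. Without library 8 the groups did not overlap, as for Inpp5d, so that 2 of 7 members lay wholly higher, against 5.86% of all genes. The difference was 0.44 (SE 0.20), with a limma adjusted p of 0.135, and 0.48 (SE 0.18) without library 8, with a limma adjusted p of 0.0622. Btk is X-linked, and Xist, the X-inactivation RNA, ran at 1980.2 to 3292 in the knockout libraries and 3291 in library 8, against 1127 to 1279 elsewhere in wild type. The 5 libraries with the highest Xist were also the 5 with the highest Btk, an overlap looked for after the values were seen. Its part in the Btk values was not tested. BTK is also a kinase of B cells. The summed B cell markers were 252 to 539 in the knockout, 350.3 in library 8 and 566 to 800.2 in the other wild-type libraries. Of the 9 markers, 5 were at 0 in every knockout library, Cd79a and Ms4a1 among them.

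Syk, the kinase gene next to the adapter in the pathway, had 247, 151, 373 and 96.6 in the knockout libraries. Wild-type libraries other than 8 lay between 162 and 209.6, with a median of 198, and library 8 had 255. The knockout values lay on both sides of the wild-type range. Their coefficient of variation was 55.9%, against 10.4% in the 6 wild-type libraries. These values rest on 218 to 863 reads in the knockout and 135 to 259 in wild type. The difference was -0.05 (SE 0.29), with a limma adjusted p of 0.919, and its interval from -0.68 to 0.58 leaves changes of that size in either direction undetected. Its sign turned in edgeR (0.13) and without library 8 (0.01). The log2 ratio of Inpp5d to Syk was 2.18, 3.17, 1.34 and 3.82 in the knockout and 1.31 to 1.98 in wild type. Across the knockout libraries this ratio was higher where Syk was lower and where Inpp5d was higher, which follows in part from how a ratio is formed.

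The phospholipase gene Plcg2 had 98.2, 134, 99.4 and 186 in the knockout libraries, 76.0 to 143 in 6 wild-type libraries (median 91.2) and 181 in library 8. The difference was 0.23 (SE 0.29, limma adjusted p 0.574), and 0.36 (SE 0.25, limma adjusted p 0.290) without library 8. Vav1, the gene of the Rac activator, had 659.5, 566, 400.2 and 647 in the knockout libraries, 427 to 578 in 6 wild-type libraries (median 504) and 465.8 in library 8. Its lowest value was knockout library 3 and its highest knockout library 1, so the wild-type range lay inside that of the knockout. The difference was 0.17 (SE 0.15), with a limma adjusted p of 0.450. For both genes the groups overlapped.

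**Figure D2:**
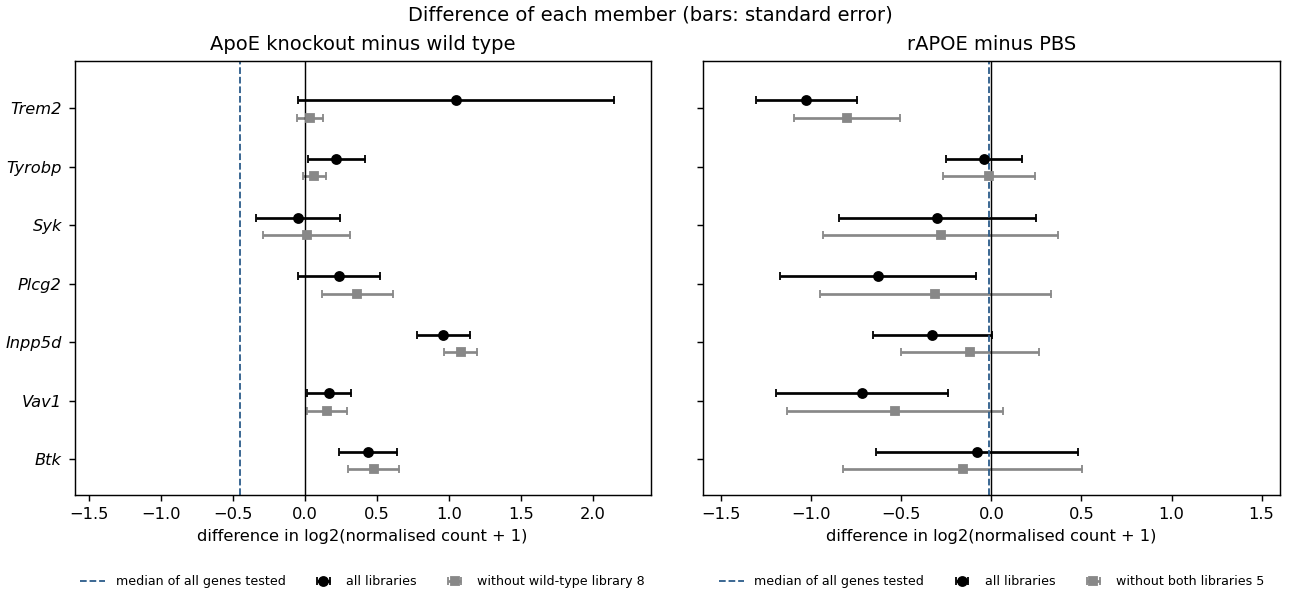
Differences in log2(normalised count + 1) of the 7 members with standard errors, for ApoE knockout minus wild type (left) and rAPOE minus PBS (right). Black points use all libraries, grey squares leave out wild-type library 8 (left) or both libraries numbered 5 (right), and the dashed line is the median of all genes tested. Inpp5d stands at 0.96 on the left, and Trem2 there stands at 1.05 with library 8 and 0.04 without it.

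How the members varied together was described by Pearson's r of the log2 values over the 11 libraries of the genotype table, which share the depth and the group of a library. Inpp5d and Btk had the highest r among pairs of downstream members, 0.81 with library 8 and 0.81 without it. Plcg2 had an r of 0.68 with Inpp5d and 0.66 with Btk. Over all 11 libraries, Syk had a negative r with each of the other 6 members, between -0.53 with Vav1 and -0.17 with Inpp5d. Without library 8 its r was 0.20 with Tyrobp and -0.05 with Trem2. Trem2 and Tyrobp had an r of 0.96, which was 0.60 without library 8. Among 5707 other genes averaging at least 50, those most like Trem2 were Trf, Rps27, Gm5805, Rpl27a and Rps12, all with r of at least 0.98, which became -0.48 to 0.52 without library 8. Trf (transferrin) had 1143 in library 8 and 2968 to 3319 in the other 10, and was the lowest of these without library 8. The ribosomal protein genes among them have near-identical copies, so their counts are uncertain. Those most like Tyrobp were Rpl17, Laptm4a, Rps12, Ngp and S100a8 (r 0.96 to 0.97), and without library 8 these r were 0.59 to 0.85. Ngp and S100a8 are neutrophil granule genes, and S100a8 had 921 to 3167 in the knockout and 79.4 in library 8. The 8 neutrophil markers summed to 1575 to 6216 in the knockout, 2045 to 2718 in 6 wild-type libraries and 182 in library 8. Tyrobp is also expressed by neutrophils, and their part in its values was not tested. Those most like Syk were Ppfia1, Psmb7, Mxd1, Creb3l2 and Thada (r 0.89 to 0.91), and their r held at 0.89 to 0.91 without library 8.

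Around the members, 96 of 113 listed genes of the wider pathway were tested in the genotype table (10 lists, members not counted). Of these, 20 rose and 13 fell in the knockout, against 5.14% and 19.8% of all genes tested, with a median difference of 0.17, or 20.8% and 13.5% of those tested. Counts of single lists below are given with their share, to be read against the same 5.14% and 19.8%. Both of these background shares depended on level. Of genes averaging 10 to 50, 0.683% rose, against 7.02% at 50 to 500 and 24.8% at 500 or more. In the same order, 1218 of 4687, 769 of 5142 and 74 of 572 fell. The lists were not matched for level, and its part in their shares was not tested. Without library 8 the number of wider pathway genes called was 43. Of the 28 genes called and named here, Inpp5d included, 16 passed in each alternative run. Markers of other brain cells were also lower in the knockout. The choroid plexus list summed to 429 to 872 there, 23617 in library 8 and 57236 to 83321 in the other wild-type libraries. The neuron list summed to at most 60.5 in the knockout, 34.3 in library 8 and 614 to 859 in the other wild-type libraries. The knockout libraries also held reads of fewer genes, as given above. The part of these markers and of the fewer detected genes in the genes that fell was not tested.

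**Figure D3:**
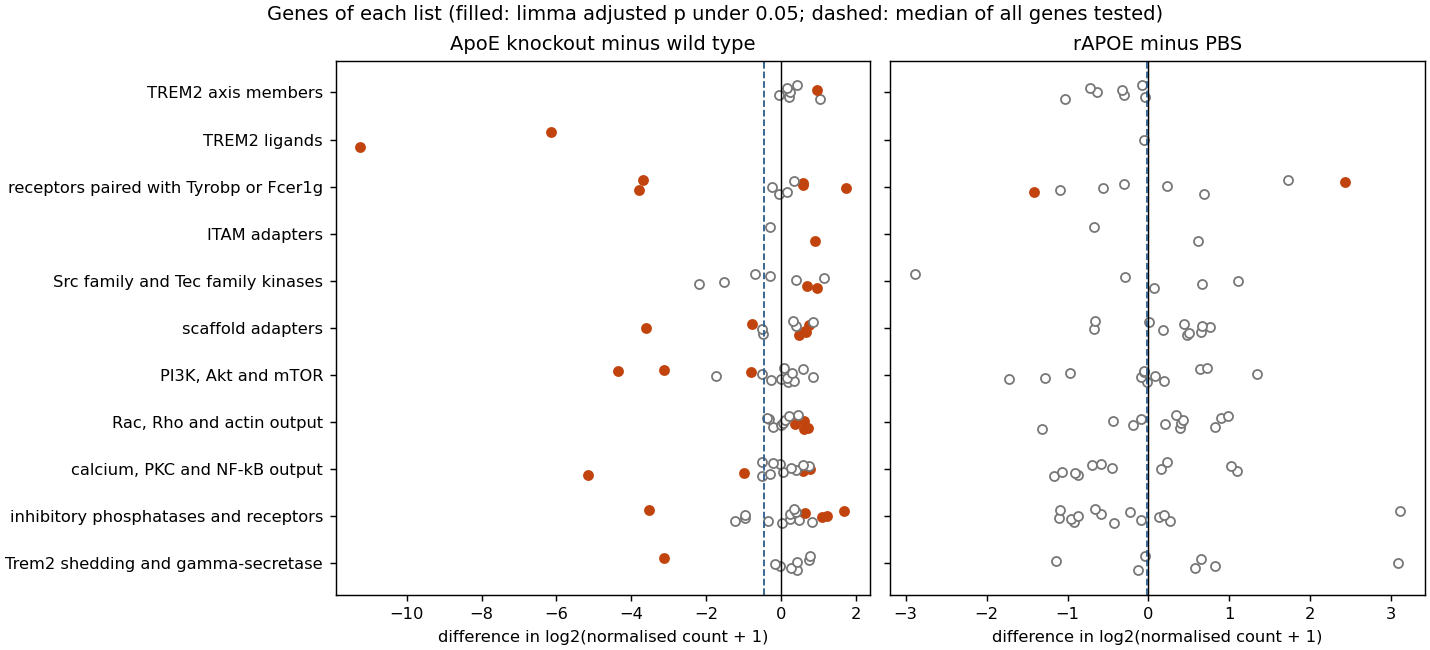
Differences in log2(normalised count + 1) of each tested gene in the member list and 10 pathway lists, for ApoE knockout minus wild type (left) and rAPOE minus PBS (right). Filled points passed limma's test at an adjusted p under 0.05, 34 on the left and 2 on the right, and the dashed line is the median of all genes tested.

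Among ligands, Apoe fell with the targeted allele. Clu (clusterin, another apolipoprotein) fell to 14.6 ± 12.1 in the knockout, against 660.3 ± 151 in wild type (SD, n = 4 and 7). Its limma adjusted p was 1.89e-05. Clu is also one of the 8 astrocyte markers, which summed to 539.8 to 1009 in the knockout. In wild type they summed to 1323 in library 8 and 2111 to 2317 in the others. These sums include Clu itself, at 0 to 28.5 in the knockout, 401 in library 8 and 583 to 848 in the other wild-type libraries. Of 9 tested receptors that pair with TYROBP or the related adapter FCER1G, 3 rose and 2 fell (33.3% and 22.2%). Cd300c2, an activating receptor gene of myeloid cells, averaged 477 ± 116 in the knockout and 142 ± 25.0 in wild type. Fcgr3, an activating IgG receptor gene, averaged 4274 ± 171 in the knockout and 2879 ± 455 in wild type, and knockout library 3 lay apart at 4020.0. Cd300lb had 0 reads in all 4 knockout libraries and 0 to 42.2 in wild type, where library 8 was also at 0, and did not pass under quantile scaling (adjusted p 0.386). Clec7a had 20.7 to 36.8 in the knockout and 482 to 760.4 in 6 wild-type libraries, with 7.22 in library 8. The adapter gene Fcer1g itself rose, at 2441 ± 202 in the knockout and 1303 ± 172 in wild type, a difference of 0.91 (SE 0.13, limma adjusted p 0.000147). Siglech and Csf1r, whose receptors also use TYROBP, differed by 0.16 and -0.22 and did not pass.

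Of 8 tested Src and Tec family kinase genes, 2 rose (25%) and 0 fell. Lyn, a kinase that phosphorylates such tyrosine motifs, averaged 1804 ± 113 in the knockout and 926 ± 144 in wild type (difference 0.97, SE 0.13, limma adjusted p 8.92e-05). Of 11 scaffold adapter genes, 4 rose and 2 fell (36.4% and 18.2%). Skap2, an adapter that links receptors to integrin adhesion, averaged 714 ± 93.4 in the knockout and 429 ± 71.4 in wild type. Grb2, which couples receptors to Ras, averaged 773 ± 61.5 in the knockout and 499 ± 62.8 in wild type. Lcp2 (SLP-76), which holds PLCG and VAV proteins together, averaged 426 ± 109 in the knockout and 261 ± 35.6 in wild type. Gab3 fell to 10.1 ± 15.1 in the knockout, against 51.4 ± 12.8 in wild type, and did not pass in edgeR (adjusted p 0.181) or DESeq2 (adjusted p 0.0605).

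Farther downstream, none of 14 genes of the phosphoinositide 3-kinase, Akt and mTOR list rose and 3 fell (21.4%), a share near the 19.8% of all genes that fell. Mtor fell to 11.7 ± 14.6 in the knockout, against 51.7 ± 14.8 in wild type, and did not pass in edgeR (adjusted p 0.143). Akt2 fell to 81.7 ± 11.1 in the knockout, against 146 ± 33.1 in wild type. It was lower in each of 11 fits without 1 library (difference -0.92 to -0.71), and 6 of these put the adjusted p over 0.05, at up to 0.0629 in limma. Akt2 also did not pass under quantile scaling (limma adjusted p 0.0820). Wild-type library 8, at 84.9 of Akt2, lay inside the knockout range of 67.5 to 94.4. Of 12 Rac and actin genes, 4 rose (33.3%). Rac1, the GTPase that VAV1 activates, averaged 1659 ± 159 in the knockout and 1011 ± 189 in wild type, and passed in each alternative. Vav2 and Wipf1, a Vav1 relative and a partner of the actin regulator WASP, rose by 0.61 each but lost the call in 8 and 3 of 11 fits without 1 library. Cdc42 rose by 0.37, with knockout library 4 apart at 2064, and lost it in 7 of 11. Nor did Cdc42 pass under quantile scaling (limma adjusted p 0.112) or in edgeR (adjusted p 0.0551).

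In the calcium, protein kinase C and NF-kB list, 2 of 14 rose and 2 fell (14.3% each). Itpr1, the calcium channel opened by the product of PLCG2, fell to 10.7 ± 12.5 in the knockout, against 184 ± 30.5 in wild type (limma adjusted p 0.000209). Stim1, the sensor of calcium stores, fell to 41.8 ± 14.2 in the knockout, against 81.2 ± 16.1 in wild type. It did not pass in edgeR (adjusted p 0.0763) or under quantile scaling (limma adjusted p 0.173). Stim1 also lost the call in 6 of 11 fits without 1 library, with limma adjusted p of up to 0.0750. Its difference stayed at -1.16 to -0.79 over those 11 fits. Prkcd averaged 649.5 ± 111 in the knockout and 431 ± 96.0 in wild type, and Bcl10 267 ± 58.5 and 160.1 ± 57.8 in the same order. Library 8 stood above the other wild-type libraries for both, at 641 and 285, and calls of both were lost in some fits without 1 library (2 of 11 and 9 of 11). Bcl10 also did not pass in edgeR (adjusted p 0.0608).

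The inhibitory receptors and phosphatases, to which Inpp5d is related in function, had 4 genes that rose and 1 that fell among 16 tested (25% and 6.25%). Cd300a, an inhibitory receptor gene, averaged 347 ± 25.4 in the knockout and 107 ± 14.1 in wild type, a difference of 1.69 (SE 0.17, limma adjusted p 1.26e-05). Sla, an adapter that lowers receptor signalling, averaged 990.5 ± 126 in the knockout and 464 ± 39.3 in wild type. Cd33, an inhibitory sialic acid receptor gene linked to Alzheimer's disease in humans, averaged 1164 ± 163 in the knockout and 513 ± 191 in wild type. Lair1, an inhibitory collagen receptor gene, averaged 2102 ± 53.1 in the knockout and 1375 ± 314 in wild type. Library 8 was the highest wild-type library for both, at 932 of Cd33 and 2071 of Lair1, as it was for Inpp5d. All 4 passed in each alternative. Of 8 genes of Trem2 shedding and gamma-secretase, 1 fell (12.5%), a share under that of all genes. This was Aph1b, at 3.44 ± 6.87 in the knockout and 17.4 ± 7.48 in wild type. It had reads in 1 knockout library (13.7 in library 4) and did not pass in edgeR (adjusted p 0.310), DESeq2 (adjusted p 0.185) or under quantile scaling (adjusted p 0.881).

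In the injected knockout males, no member passed the test between rAPOE and PBS. Trem2 had the largest of the members' differences and was lower after rAPOE in 4 of 5 libraries than in any PBS library. Tyrobp differed by -0.04, and its groups overlapped. All 7 estimates lay below 0, and for 6 of them by less than 2 standard errors. Of all 7066 genes tested, 0.368% rose and 0.113% fell, and the median difference of all genes was -0.01.

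**Figure D4:**
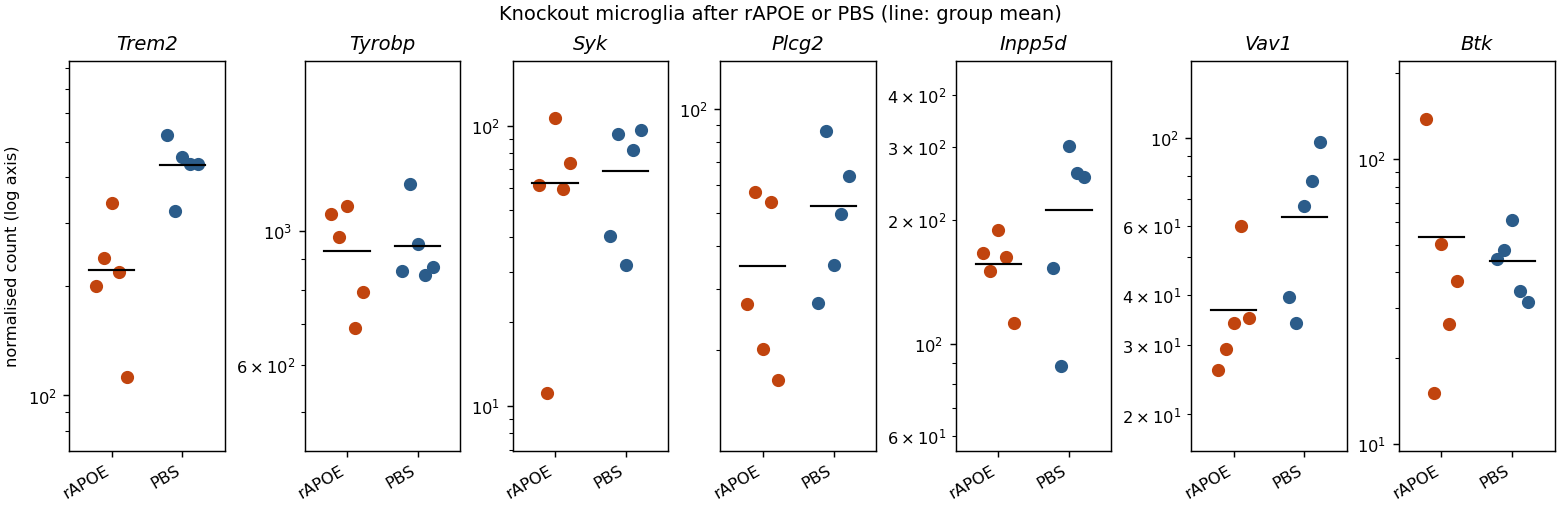
Normalised counts of the 7 members (log axis, each panel with its own range) in knockout microglia after rAPOE (left, 5 libraries) or PBS (right, 5 libraries). Points are libraries and lines are group means; for Trem2 the rAPOE libraries run from 113 to 339 and the PBS libraries from 322 to 523.

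Trem2 had 200.3, 239, 339, 219.6 and 113 normalised counts in the rAPOE libraries, against 523, 322, 454, 434 and 435 in the PBS libraries. Only rAPOE library 3 reached into the PBS range, above PBS library 2. These values rest on 145 to 338 reads after rAPOE and 255 to 676 after PBS. The means were 222 ± 81.3 after rAPOE and 434 ± 72.1 after PBS (SD, n = 5 each), a ratio of 0.512. The difference, rAPOE minus PBS, was -1.03 (SE 0.28, interval -1.61 to -0.45), with an unadjusted limma p of 0.00138 and an adjusted p of 0.122. It ranked 80 among 7066 genes by p. DESeq2 gave an adjusted p of 0.0343 and edgeR 0.217, and over all 21 alternatives the adjusted p ran from 0.0343 to 0.443. Limma passed it at an adjusted p of 0.0373 without rAPOE library 3. Without both libraries numbered 5 the difference was -0.80 (limma adjusted p 0.443).

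The summed microglial markers ran from 13031 to 25790 after rAPOE and from 21814 to 29045 after PBS, so the groups overlapped, with all 10 detected in both. P2ry12, a receptor gene of resting microglia, had a median of 319 after rAPOE and 1450.5 after PBS, and Csf1r, the receptor that microglia need to survive, 2143 after rAPOE and 3164 after PBS. Aif1 was the only marker of the list with a higher median after rAPOE, at 198 against 175 after PBS. The other markers had lower medians after rAPOE, among them Cx3cr1 (4190 against 5483) and C1qa (2517 against 3101). For P2ry12, Fcrls and Siglech the groups did not overlap, as for 1.54% of all genes in that direction. The ranges of the remaining markers overlapped between the groups. The part of the markers in the Trem2 values was not tested. The genes most like Trem2 over the 10 libraries, among 2481 averaging at least 50, were Cd164, Cd84, Timp2, Selplg and Sirpa (r 0.94 to 0.96). Sirpa, an inhibitory receptor gene of macrophages, averaged 474 after rAPOE and 692 after PBS. Selplg, a selectin ligand gene that is high in resting microglia, averaged 599.8 after rAPOE and 1499.9 after PBS. These 10 libraries share group and depth, so the r values only describe the likeness.

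Tyrobp had 1069, 979, 1099, 691 and 791 in the rAPOE libraries, against 859.7, 1197, 950.3, 847 and 873 in the PBS libraries. The groups overlapped, and the difference was -0.04 (SE 0.21, interval -0.48 to 0.40, limma adjusted p 0.972). The log2 ratio of Trem2 to Tyrobp was -2.80 to -1.65 after rAPOE and -1.89 to -0.72 after PBS. PBS library 2, the highest for Tyrobp and the lowest for Trem2 in its group, was the only PBS library inside the rAPOE range. The genes most like Tyrobp were Rps27, Itm2c, Rps28, Rps21 and mt-Nd4 (r 0.91 to 0.92). Tyrobp and Trem2 had an r of 0.18 in this table.

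**Figure D5:**
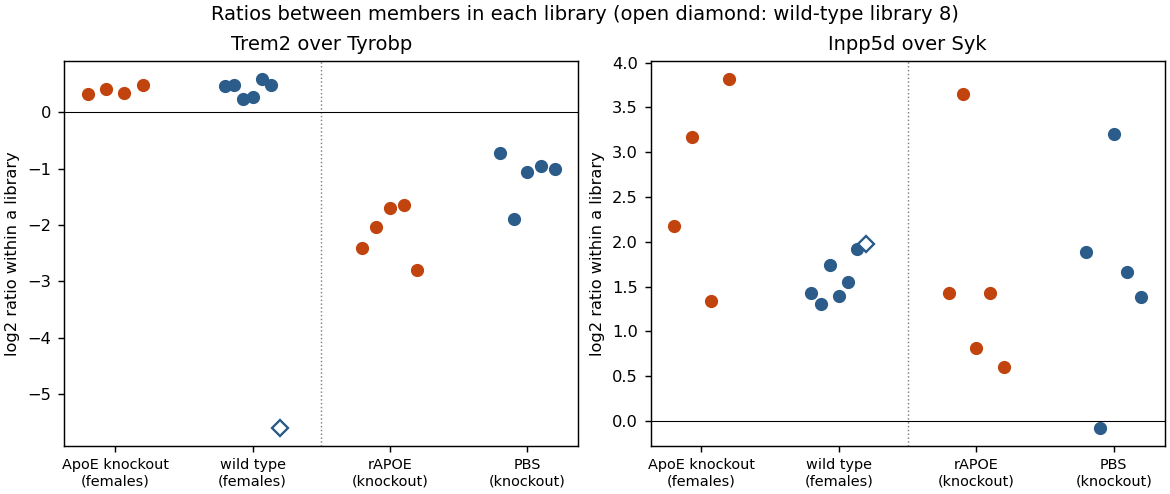
Log2 ratio within a library of Trem2 to Tyrobp (left panel) and of Inpp5d to Syk (right panel). Groups are ApoE knockout and wild-type females, then rAPOE and PBS in knockout males; the dotted line separates tables that are not compared, and the open diamond is wild-type library 8, at -5.60 for Trem2 to Tyrobp.

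Syk had 61.3, 11.1, 106, 59.8 and 73.8 in the rAPOE libraries, against 40.5, 93.6, 32, 81.7 and 96.5 in the PBS libraries. rAPOE library 2 stood apart with 11 reads, and without it the difference changed sign, to 0.22, against -0.30 (SE 0.55, limma adjusted p 0.880) with it. Those most like Syk were Ddit3, Bicd2, Ptk2b, Zmynd8 and Arid1a (r 0.86 to 0.89), and rAPOE library 2 was the lowest library for Ddit3 as well, at 11.1. Btk had 138, 15.1, 50.2, 26.4 and 37.3 in the rAPOE libraries, against 44.7, 48.0, 60.8, 34.2 and 31.5 in the PBS libraries. Both the highest and the lowest value came after rAPOE, and the rest overlapped. Its difference was -0.08 (SE 0.56, limma adjusted p 0.975) and turned to 0.27 in edgeR.

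Plcg2 had 27.1, 57.5, 20.1, 53.5 and 16.3 in the rAPOE libraries, against 27.3, 86.0, 35.2, 49.4 and 63.7 in the PBS libraries (difference -0.63, SE 0.54, limma adjusted p 0.709). Vav1 had 25.9, 29.3, 34.1, 59.8 and 35.0 in the rAPOE libraries, against 39.7, 34.1, 67.2, 77.7 and 97.8 in the PBS libraries (difference -0.72, SE 0.48, limma adjusted p 0.600). Both groups overlapped for each gene, at 20 to 99 reads for Plcg2 and 22 to 152 for Vav1. Inpp5d, the member that rose in the uninjected knockout, had 166, 150.3, 189, 162 and 113 in the rAPOE libraries, against 153, 88.5, 302, 260.1 and 254 in the PBS libraries. Here the PBS libraries were the more spread, and the rAPOE values lay within their range. The difference was -0.33 (SE 0.33, interval -1.02 to 0.36), with a limma adjusted p of 0.761. Without both libraries numbered 5, no member passed. Inpp5d then differed by -0.12, Plcg2 by -0.31, Vav1 by -0.54, Syk by -0.28, Btk by -0.16 and Tyrobp by -0.015.

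Of 82 tested genes of the wider pathway, 1 rose and 1 fell after rAPOE (1.22% each), against 0.368% and 0.113% of all genes. Fcgr4, an activating IgG receptor gene that signals through FCER1G, had 113, 93.8, 95.4, 102 and 187 in the rAPOE libraries, against 21.5, 12.6, 25.6, 20.4 and 24.5 in the PBS libraries. The groups did not overlap, as for 1.59% of all genes in that direction, and the difference was 2.43 (SE 0.44, limma adjusted p 0.00805). Without rAPOE library 5, the highest, it did not pass (difference 2.25, limma adjusted p 0.0769). Fcgr4 did not pass without both libraries numbered 5 either (difference 2.32, limma adjusted p 0.130). Siglech, a receptor gene of microglia whose product signals through TYROBP, had 77.8, 138, 192, 218 and 144 in the rAPOE libraries, against 310.3, 359, 346, 492.6 and 463 in the PBS libraries. The difference was -1.41 (SE 0.29, limma adjusted p 0.0261), a fall, and its groups did not overlap, as for 1.54% of all genes in that direction. It did not pass in edgeR (adjusted p 0.0556), without both libraries numbered 5 (limma adjusted p 0.180) or in 6 of 10 fits without 1 library. Siglech is also one of the 10 microglial markers summed above. The lists of adapters, kinases, scaffolds, phosphoinositide 3-kinase, Rac, calcium, inhibitory genes and Trem2 shedding had no gene that passed.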

How the data were processed

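RNA of microglia from 21 libraries was read as QuantSeq 3′ FWD tags on an Illumina MiniSeq, per the labels' protocols. The submitters' processing notes name HTSeq, DESeq2, R 3.2.3, Picard 1.8.4 and GRCm38.p3; the sources used here do not say what each did, how reads were aligned or whether strand was used. The authors deposited a signal per gene, a read count divided by a library factor, in 2 tables normalised apart. Whole reads came back from 100% of values above 0, within 0.01 of a whole number. Entries with spreadsheet dates for names (22 of 18221, 0.0966% of the sum) and 120 listed at 0 throughout were left out. Symbols matched GENCODE M21 for 99.3% and 99.9% of genes.

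Values were tested as log2(normalised count + 1) with limma 3.58.1 (R 4.3.3; eBayes with trend) for genes averaging at least 10, with Benjamini-Hochberg adjustment over all genes tested; this scale understates the change of low genes. The script was tested on simulated data. edgeR 4.0.16 (quasi-likelihood) and DESeq2 1.42.0 ran on recovered reads. Intervals are at 95% from the moderated fit. Alternatives were other pseudocounts (4 and 0.5), filters (none and 50), scalings, tools, a block, and libraries left out. Named were the members, up to 4 called genes per list by adjusted p, and the 5 genes most like Trem2, Tyrobp and Syk. The members and lists were chosen with earlier results of these data known. Reads carry no molecular identifiers, so read numbers bound counting error only. Some listed genes are counted in their lists but not reported by name here.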

Additional observations from a re-analysis of the deposited data

Results flagged for a closer look

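In 88 groups of 4 to 7 libraries, the gap between the extreme library and its nearest neighbour on the log2 scale passed Dixon's 95% limit 15 times; chance gives about 1 in 20. Wild-type library 8 accounted for most of them. It lay far below the remaining 6 for Trem2 (16.2), Tyrobp (836), Clec7a (7.22) and Apoe (1011). It lay far above them for Inpp5d (1004), Cd33 (932), Lair1 (2071), Prkcd (641) and Bcl10 (285).

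Among knockout libraries, library 4 was high for Aph1b (13.7) and Cdc42 (2064), and library 3 was low for Fcgr3 (4020.0). After rAPOE, library 2 was low for Syk (11.1), library 5 was high for Fcgr4 (187) and library 4 was high for Apoe (8.54, or 11 reads).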

How the results depend on the processing

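Inpp5d passed in the knockout, and no other member did, under each alternative run. The genes called there numbered 1289 at a mean of at least 50 (fewer genes tested) and 1657 in edgeR, against 2596, and 2007 to 3169 without 1 library. Between rAPOE and PBS 34 genes passed, against 58 with a pseudocount of 4, 67 under quantile scaling, 114 in DESeq2, 24 in edgeR, 11 without both libraries numbered 5 and 16 to 74 without 1 library. Members passing numbered 1 in DESeq2 and 0 to 1 without 1 library, each time Trem2. Pathway genes passing, 2 as reported, numbered 1 in edgeR, 4 in DESeq2, 0 without both libraries numbered 5 and 0 to 3 without 1 library. The cause was not tested.

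Differences that turned sign were small against their errors. For Syk in the knockout (-0.05) they were 0.019 under quantile scaling, 0.13 in edgeR, 0.12 in DESeq2, and -0.37 to 0.28 without 1 library. For rAPOE, Tyrobp (-0.04) gave 0.010 under quantile scaling and -0.11 to 0.059 without 1 library, and Syk (-0.30) gave -0.57 to 0.22. Btk (-0.08) gave 0.27 in edgeR, 0.28 in DESeq2 and -0.52 to 0.26 without 1 library.

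The labels give no sign that equal replicate numbers pair libraries, and the r of the deviations of same-numbered libraries was -0.03 to 0.02 in the genotype table and -0.004 to 0.19 in the injection table. There it was 0.19 for number 4, whose libraries matched their own number best. It was 0.11 for number 5, whose best match was number 4, and under 0.1 for numbers 1 to 3. The numbers were therefore not taken to pair libraries. Libraries 4 and 5 of both groups also had reads of more genes than libraries 1 to 3, as given above. Whether libraries 4 and 5 form a set of their own was not tested. With a replicate block, 1823 genes passed in the knockout and 52 after rAPOE; Inpp5d differed by 1.14 (adjusted p 0.00208) and Trem2 after rAPOE had an adjusted p of 0.100. Syk, Plcg2, Vav1 and Btk had 11 to 152 reads in the injection table. The lowest for Syk (11) and Btk (15) were both in rAPOE library 2, which had the most reads among rAPOE libraries (1119059). The part of library depth in these values was not tested.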
